A study of Rattus norvegicus with 7 samples.

Results

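The Zfp genes of the rat encode proteins named for zinc fingers, short loops folded around a zinc ion, most of which are of the type that reads DNA. Probes were chosen whose gene symbol begins with Zfp and a digit and that were detected, meaning well above background, on 3 or more of the 7 arrays. This gave 190 of 200 Zfp probes, for 158 of 165 Zfp genes on the array, among 11966 named genes and 19991 genes and unnamed probes tested. Each gene was represented by its probe with the highest mean. Each array held 1 sample of cerebellar RNA from female Wistar rat pups, 21 days old. MDD pups (methyl donor deficiency, n = 3) had mothers fed without enough folate or vitamin B12 and with reduced choline. CTRL pups (n = 4) had mothers on the standard diet, and both diets began 1 month before pregnancy and lasted until the pups were weaned at 21 days. No dam or litter is named, so pups of a group may be siblings, and the p-values cover pup-to-pup spread alone.

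Many Zfp proteins carry a KRAB domain, which recruits the co-repressor TRIM28 and with it enzymes that methylate histone H3 at lysine 9. Through this machinery some of them keep transposons silent and protect the DNA methylation of imprinted genes, ZFP57 being the best known case in mouse and human. Others bind GC-rich promoters, act on RNA or steer the development of neurons and glia. Folate, vitamin B12 and choline feed the methyl groups used by DNA and histone methyltransferases, which is the setting of the comparison between MDD and CTRL.

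Levels are on the log2 scale, except for sums of marker levels, and a level of 0 is the 75th percentile of the array. A level of one probe cannot be set against that of another. Of the 158 genes, 154 were well above background on all 7 arrays. Those left out by the detection rule were Zfp36, Zfp217, Zfp352, Zfp475, Zfp494, Zfp605l1 and Zfp707l1, each well above background on 0 or 1 array. The 10 granule neuron markers and the 7 measured Purkinje cell markers were detected on every array, so the defining markers of the labelled tissue were present. The share of spots well above background was 74.7% to 75.4% in MDD and 74.1% to 79.6% in CTRL (two-sided exact permutation p = 0.343 over 35 splits), and no spot was saturated. All arrays lay on 1 slide. The MDD arrays and CTRL replicate 4 were in row 2 and CTRL replicates 1 to 3 in row 1, so row and group are partly confounded.

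Zfp transcripts leaned towards lower levels in MDD. Of the 158 genes, 118 had a lower mean in MDD (74.7%), against 52.5% of all features tested. The median log2 change, MDD minus CTRL, was -0.27 over the Zfp genes (lower and upper quartile -0.43 and 0.01) and -0.03 over all features. By limma with Benjamini-Hochberg adjustment over all 19991 features, 24 Zfp genes passed, where 20.4% of all features did. Of these 19 fell (12.0%) and 5 rose (3.16%), while over all features 7.72% fell and 12.7% rose. In the plot of log2 changes the Zfp genes peak left of the bulk of the array.

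**Figure D1:**
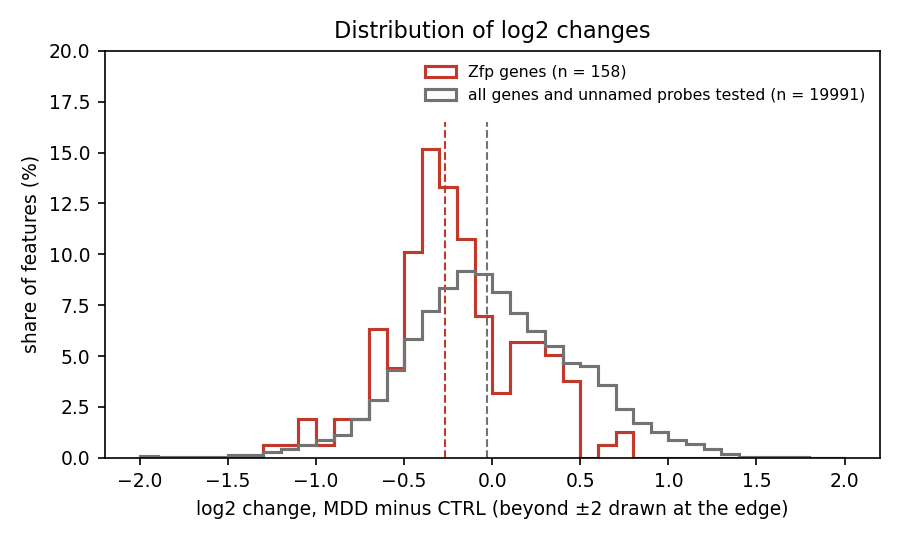
Share of features (%, y axis) in bins of log2 change, MDD minus CTRL (x axis), for the 158 Zfp genes and for all 19991 genes and unnamed probes tested. Dashed lines mark the medians, -0.27 for Zfp genes and -0.03 for all features.

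The MDD and CTRL arrays did not overlap for 68 of the Zfp genes (43.0%), against 36.5% of all features. Of the 158 genes, 53 did not overlap and were lower in MDD (33.5%) and 15 were higher (9.49%), where of all features 16.4% were lower and 20.1% higher. Fitting every kept probe on its own called 24 Zfp probes lower and 5 higher of 190, beside 7.85% and 12.3% of all probes. The RNA came from whole tissue, in which fewer cells of a type and less RNA per cell cannot be told apart.

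The lean was present on each MDD array. Against the mean of the CTRL arrays, the median Zfp gene stood at -0.30, -0.16 and -0.25 in MDD replicates 1, 2 and 3. Each CTRL array set against the other CTRL arrays gave 0.08, -0.03, 0.02 and -0.08 in replicates 1 to 4. The same medians over all features lay between -0.06 and 0.02 in MDD and between -0.04 and 0.05 in CTRL. All 3 MDD medians of the Zfp genes were thus below all 4 CTRL medians, and CTRL replicate 4, in the row of the MDD arrays, was the lowest CTRL array. The shares of Zfp genes below that mean were 75.3%, 69.6% and 71.5% in MDD. In CTRL replicates 1 to 4 they were 35.4%, 58.9%, 41.1% and 67.1%, so CTRL replicate 4 came near MDD replicate 2. Over all features the shares were 54.3%, 50.1% and 48.4% in MDD and 41.9%, 54.6%, 46.9% and 57.8% in CTRL.

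**Figure D2:**
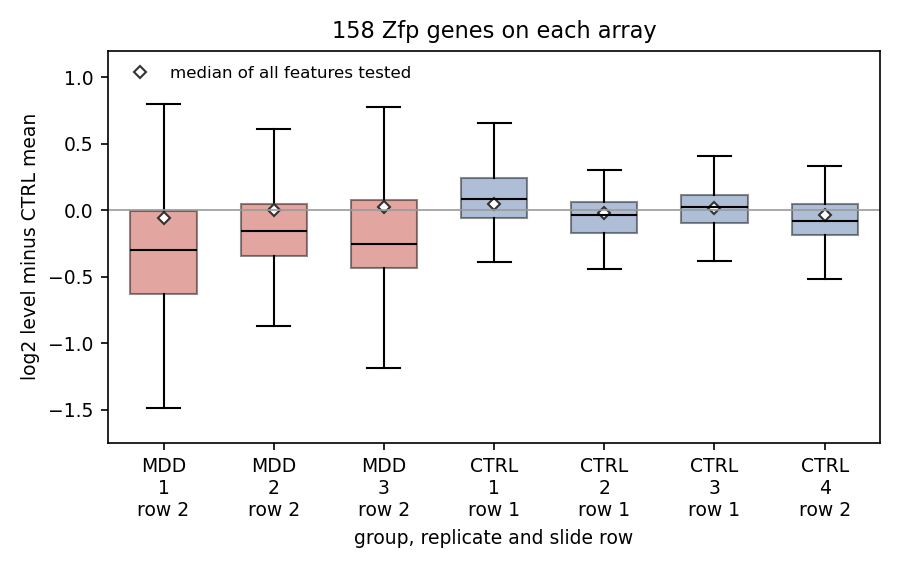
Log2 level minus the CTRL mean (y axis) of the 158 Zfp genes on each array, MDD in red and CTRL in blue, with the slide row given under each array (CTRL arrays against the other CTRL arrays). Boxes span the quartiles, lines in them are medians, whiskers reach the last value within 1.5 box lengths, and diamonds are medians of all features tested. The MDD medians lie between -0.30 and -0.16 and the CTRL medians between -0.08 and 0.08.

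The median kept its sign under each alternative planned, from -0.29 to -0.16, while that of all features lay between -0.04 and 0.02. These alternatives share arrays and are not separate checks. Testing each kept probe could not change the median (-0.27). A fit with the replicate number as a block gave the same median as leaving out CTRL replicate 4 (-0.28). The Zfp median was -0.16 with normexp background correction, -0.17 with the authors' deposited table and -0.17 with slide row as a covariate. The number of calls was less stable. Without CTRL replicate 1, 2, 3 or 4 the genes called lower numbered 6, 7, 4 and 4, and the genes called higher 0, 1, 1 and 0. Calls dropped across the array too. Over all 19991 features, 492, 603, 335 and 223 were lower in these fits and 1393, 1347, 1083 and 799 higher, against 1543 and 2538 as reported. Without MDD replicate 1, 8 Zfp genes were called lower, beside 586 of all features. With slide row as a covariate 0 were called in either direction (limma, smallest adjusted p of a Zfp gene 0.138), with 14 lower and 5 higher at an unadjusted p under 0.05, and over all features 0 rose and 1 fell. In that fit the comparison rests on CTRL replicate 4 as the single control array of its row.

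**Figure D3:**
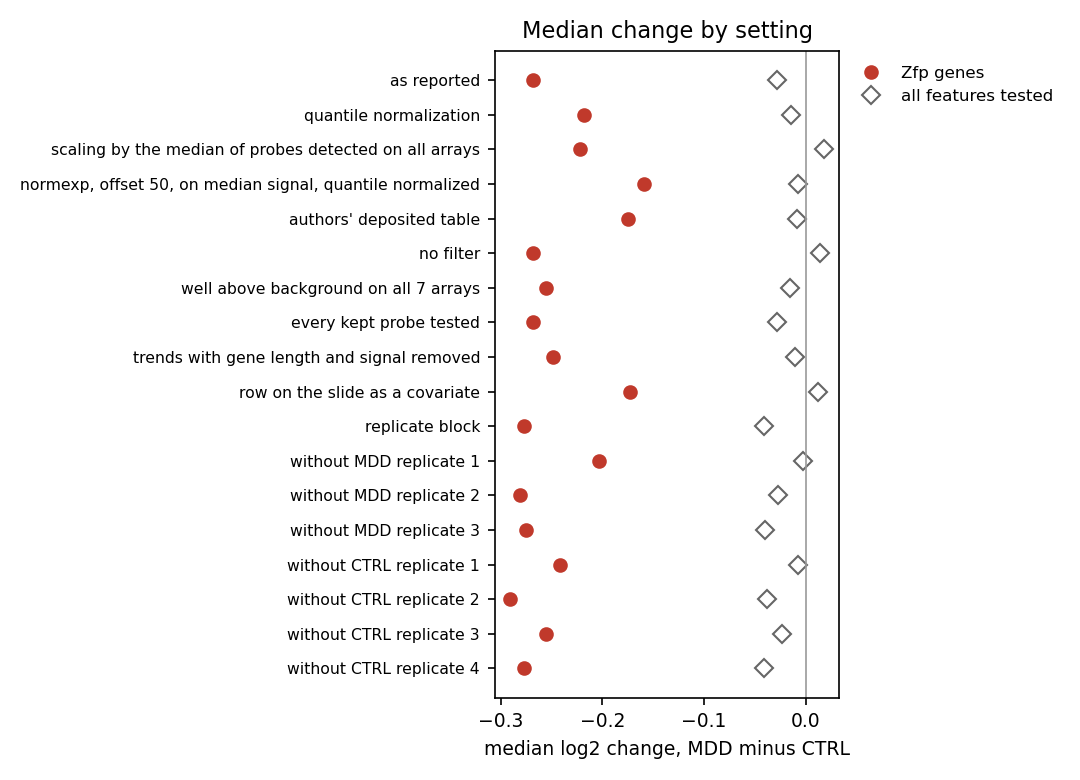
Median log2 change, MDD minus CTRL (x axis), of the Zfp genes (red circles) and of all features tested (open diamonds) as reported and under each alternative (y axis). The Zfp median stays between -0.29 and -0.16 in every row and lies left of the median of all features in each. The rows share arrays, and some repeat the same log2 changes.

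Zfp800, Zfp189, Zfp280d and Zfp867 made up the falls that held when any one array was left out, and their calls also held under the alternatives other than slide row and the replicate block. Their size did not hold. With normexp the log2 change was -0.41 for Zfp800, -0.58 for Zfp189, -0.47 for Zfp280d and -0.44 for Zfp867. With the authors' deposited table it was -0.52, -0.68, -0.53 and -0.49 in the same order. Of all 19 falls, normexp made 8 smaller by over 1.5 times on the log2 scale, and 7 were that much smaller in the authors' deposited table. Zfp800, which in human intestinal organoids represses the endocrine fate, had log2 levels of -5.31, -5.38 and -5.51 in MDD, against -3.97, -4.44, -4.30 and -4.57 in CTRL. All MDD arrays were below all CTRL arrays by more than the spread within either group, a 2.11-fold fall (log2 -1.08, SE 0.16, limma adjusted p = 0.00991). Zfp189, a target of CREB in the mouse prefrontal cortex that has been tied to stress resilience, stood at -5.09, -4.52 and -4.47 in MDD and at -3.41, -3.51, -3.79 and -3.87 in CTRL. It was 2.06-fold lower (log2 -1.04, SE 0.19, adjusted p = 0.0132), with MDD replicate 1 the lowest of all arrays.

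Zfp280d had 2 probes, and both fell. The brighter gave -3.69, -3.48 and -3.52 in MDD, against -2.50, -2.80, -2.57 and -2.97 in CTRL, a 1.81-fold fall (SE of log2 0.15, limma adjusted p = 0.0113). Its dimmer probe had a log2 change of -0.89, against -0.85 for the brighter one. Zfp867 also had 2 probes that both passed. Its brighter probe gave -3.99, -4.09 and -3.61 in MDD and -3.09, -3.07, -3.04 and -3.04 in CTRL, 1.78-fold lower in MDD (SE of log2 0.14, adjusted p = 0.0108). The 4 CTRL values were nearly equal, and the spread lay in the MDD arrays.

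The fall with the largest size, that of Zfp398, rested on more scattered values. Zfp398, whose human protein binds the oestrogen receptor alpha, had log2 levels of -4.19, -2.75 and -3.42 in MDD, against -2.08, -2.44, -2.35 and -2.07 in CTRL. The groups did not overlap. MDD replicate 2 was the closest to the controls, and the 2.33-fold fall (log2 -1.22, SE 0.30, limma adjusted p = 0.0282) held in 2 of 7 fits with one array left out. Zfp52 was at -3.11, -2.50 and -3.47 in MDD and at -2.24, -2.04, -2.27 and -1.93 in CTRL, 1.87-fold lower (SE of log2 0.22, adjusted p = 0.0283). Its call held in 1 of 7 such fits.

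The remaining named falls were smaller. Zfp667, known in rat as Mipu1 from ischaemic preconditioning, averaged -4.87 ± 0.34 in MDD and -4.06 ± 0.24 in CTRL (SD, n = 3 and 4), a 1.75-fold fall. Zfp846 was 1.74-fold lower, Zfp367 1.71-fold and Zfp157 1.62-fold, with adjusted p between 0.0235 and 0.0384. Normexp ended the calls of Zfp667 (log2 change -0.29, limma adjusted p = 0.0704) and Zfp367 (-0.20, adjusted p = 0.152). The authors' deposited table ended them too, at -0.33 (adjusted p = 0.0703) for Zfp667 and -0.26 (adjusted p = 0.0979) for Zfp367. Zfp37, a KRAB protein found in neuronal nuclei in mouse, was 1.62-fold lower (log2 -0.70, SE 0.20, limma adjusted p = 0.0421). Zfp281, which binds GC-rich promoters and restrains pluripotency genes in mouse stem cells, had log2 levels of -0.62, 0.20 and -0.03 in MDD, against 0.48, 0.59, 0.59 and 0.47 in CTRL. MDD replicate 1 was the farthest below the controls, and the fall was 1.60-fold (SE of log2 0.19, adjusted p = 0.0397). Zfp347 was 1.56-fold lower, Zfp385b, a paralogue of the RNA-binding Zfp385a, 1.56-fold and Zfp654 1.53-fold. The other 4 calls had log2 changes from -0.57 to -0.44, and all 19 fell by 1.36-fold to 2.33-fold. With no filter on detection, 5 of the 24 calls held, and with trends removed 14. In fits that left out one array, 4 of the 24 called genes kept their call in all 7, 3 in 4 to 6, 16 in 1 to 3 and 1 in 0.

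**Figure D4:**
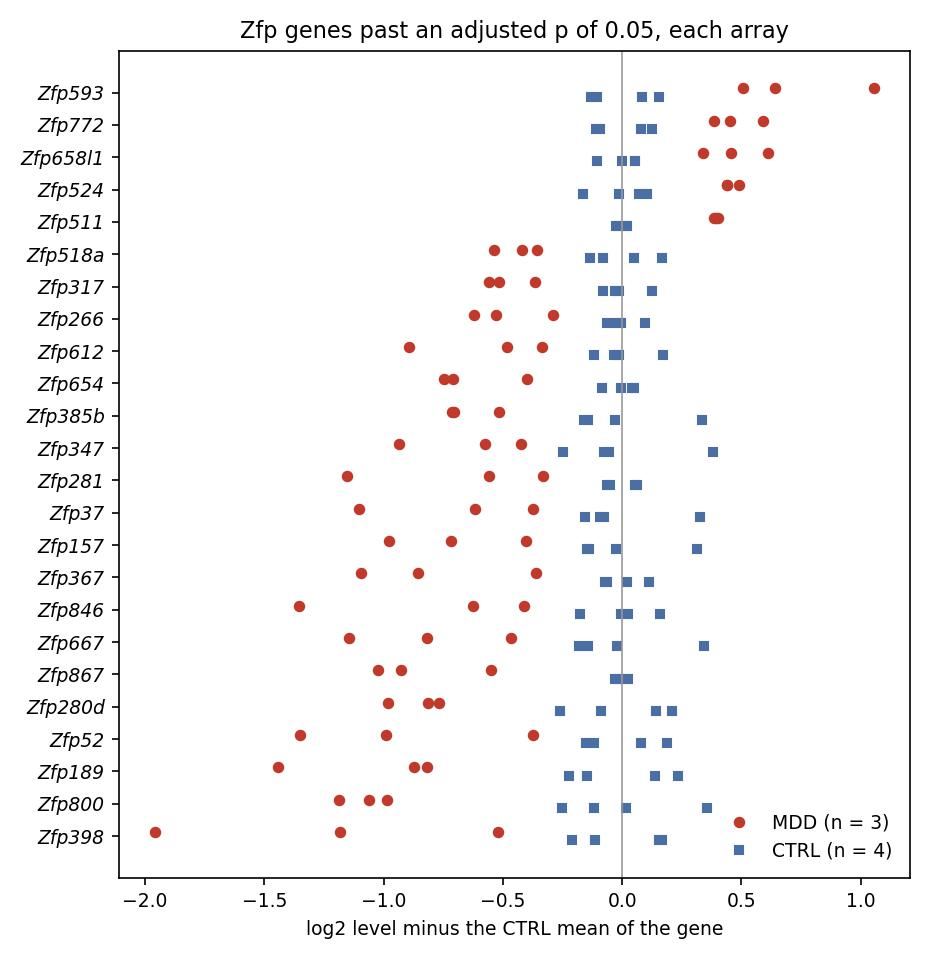
Log2 level minus the CTRL mean of the gene (x axis) for the 5 Zfp genes that rose and the 19 that fell, 1 point an array, MDD as red circles and CTRL as blue squares. Groups are apart for each gene, and the MDD points of Zfp398 spread more widely than those of Zfp800 or Zfp511.

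Zfp593 had the largest of the 5 rises. The human protein, a partner of the factor OCT-2, is the relative of a yeast protein that serves in export of the large ribosomal subunit. Its log2 levels were 0.18, 0.05 and 0.59 in MDD, against -0.59, -0.38, -0.30 and -0.57 in CTRL. All MDD arrays were above all CTRL arrays, a 1.66-fold rise (log2 0.73, SE 0.16, limma adjusted p = 0.0206), and the dimmer probe gave a log2 change of 0.39 (adjusted p = 0.0523 among all probes).

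Zfp511 was the tightest of the set, at 0.55, 0.54 and 0.55 in MDD and 0.17, 0.18, 0.14 and 0.13 in CTRL, a 1.31-fold rise (SE of log2 0.10, limma adjusted p = 0.0324). Its dimmer probe had a log2 change of 0.34 and did not pass (adjusted p = 0.145 among all probes). Zfp524, whose human protein binds telomeric DNA, was at 1.13, 1.18 and 1.13 in MDD, against 0.52, 0.67, 0.79 and 0.76 in CTRL. It was 1.37-fold higher (adjusted p = 0.0307), with groups apart. This call was lost with quantile normalization (adjusted p = 0.0621), normexp (adjusted p = 0.0795) and the authors' deposited table (adjusted p = 0.0737). Zfp772 gave 0.65, 0.45 and 0.51 in MDD and -0.05, 0.19, 0.14 and -0.03 in CTRL, 1.39-fold higher. Zfp658l1, a relative of the zinc-responsive human gene ZNF658, gave -4.11, -3.84 and -4.0 in MDD and -4.40, -4.40, -4.45 and -4.56 in CTRL, 1.38-fold higher (adjusted p = 0.0308). Zfp593, Zfp511, Zfp524 and Zfp772 are short genes, of 2329, 4406, 3239 and 6727 bases. Only Zfp658l1 of the 5 stayed called once trends with gene length and signal had been removed array by array (1 higher and 23 lower then). The other rises also shrank. With trends removed the log2 changes of Zfp593, Zfp511, Zfp524 and Zfp772 were 0.40, 0.10, 0.08 and 0.23, against 0.73, 0.39, 0.46 and 0.47 as reported. That of Zfp658l1 was 0.64, against 0.47.

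Promoters are shown for 2 genes that fell and 2 that rose, since the diet limits methyl groups and CG pairs are where vertebrate DNA is methylated. Each run is the 250 bases before the annotated start, 5′ to 3′ in the direction of the gene, from RefSeq on the rat assembly GRCr8 (the array's own grid rests on rn4), with CG pairs in capitals.
Zfp800 (chr4:57814210-57814459, minus strand): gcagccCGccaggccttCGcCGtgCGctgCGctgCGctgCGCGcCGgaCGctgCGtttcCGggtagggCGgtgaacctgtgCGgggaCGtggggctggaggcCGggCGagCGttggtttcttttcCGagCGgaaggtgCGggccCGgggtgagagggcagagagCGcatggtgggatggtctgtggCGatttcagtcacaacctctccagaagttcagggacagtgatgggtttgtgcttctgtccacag
Zfp867 (chr10:44754765-44755014, minus strand): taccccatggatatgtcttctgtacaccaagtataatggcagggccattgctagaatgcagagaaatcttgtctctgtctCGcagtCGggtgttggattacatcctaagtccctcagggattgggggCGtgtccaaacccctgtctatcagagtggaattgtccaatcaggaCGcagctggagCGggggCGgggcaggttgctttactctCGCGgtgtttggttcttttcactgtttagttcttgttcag
Zfp593 (chr5:151748725-151748974, minus strand): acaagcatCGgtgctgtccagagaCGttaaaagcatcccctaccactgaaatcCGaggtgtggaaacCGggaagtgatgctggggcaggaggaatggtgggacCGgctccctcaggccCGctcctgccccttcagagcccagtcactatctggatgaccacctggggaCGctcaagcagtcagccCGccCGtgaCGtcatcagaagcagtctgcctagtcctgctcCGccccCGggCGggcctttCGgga
Zfp511 (chr1:204247099-204247348, plus strand): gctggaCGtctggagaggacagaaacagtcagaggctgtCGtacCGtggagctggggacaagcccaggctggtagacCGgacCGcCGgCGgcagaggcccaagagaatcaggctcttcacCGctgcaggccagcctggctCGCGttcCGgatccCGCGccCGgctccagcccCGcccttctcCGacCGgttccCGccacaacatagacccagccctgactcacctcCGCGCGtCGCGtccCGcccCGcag
These windows hold 24 CG pairs for Zfp800 and 8 for Zfp867, which fell, and 14 for Zfp593 and 25 for Zfp511, which rose. The starts are those of the annotation and were not checked against the ends of transcripts in these samples, and DNA methylation was not analysed here.

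Of the 158 genes, 131 had such a window. The median number of CG pairs was 13, against 15 for the 9784 named genes measured that had one, and 70.2% and 69.3% held at least 10. It was 15 for the 16 genes with a window that fell, 7 for the 5 that rose and 13.5 for the 110 that were not called. Across the 131 genes the log2 change had a Spearman's rho of -0.10 with the CG count, given as a description, since genes share arrays and base composition. Short motifs were searched on both strands. GGGCGG, the core of the GC box, was in 45% of Zfp windows and 54.8% of those of named genes measured. CCAAT was in 38.2% and 35.5%, TATAAA in 9.92% and 8.02% and ATGGCG, a core read by YY1, in 11.5% and 8.30%. GGGCGG was found in 8 of the 16 genes that fell and 4 of the 5 that rose, and GGGCGG contains the CG pair counted above.

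Most measured members of the role lists did not pass the test, which 20.4% of all features passed in either direction. Of 27 measured members of the role lists, 24 had a lower mean in MDD, with a median log2 change of -0.29, and 1, Zfp281, passed, where 7.72% of all features fell. The groups did not overlap for 13 that were lower and 2 that were higher, against 16.4% and 20.1% of all features. Lower calls numbered 6 with quantile normalization, 4 on values of the authors' deposited table, 6 with the length and signal trends removed and 9 with normexp, and higher calls 0 in each. Over all 19991 features, lower calls in the same order numbered 1601, 1769, 1158 and 1964, against 1543 as reported. Higher calls over all features numbered 2100, 2393, 1566 and 2335, against 2538 as reported.

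Among promoter and cell cycle factors, all 9 measured members had a lower mean in MDD, with a median log2 change of -0.32. Zfp148, which binds GC-rich promoters, had log2 levels of 0.52, 0.72 and 0.84 in MDD, against 1.02, 1.08, 1.10 and 1.06 in CTRL. The groups did not overlap and the log2 change was -0.37 (SE 0.12, limma adjusted p = 0.0588). Zfp131 had a log2 change of -0.37 (adjusted p = 0.0689), Zfp91, a ubiquitin ligase of the NF-kappa B pathway, -0.32, and Zfp207, which binds the kinetochore protein Bub3, -0.31. Zfp395 was at -0.36 on its brighter probe and 0.08 on its dimmer one, Zfp260 at -0.27 and Zfp143, a factor of many housekeeping promoters, at -0.27. Zfp384 had a log2 change of -0.03 (SE 0.18, 95% interval -0.45 to 0.40). Its sign turned with quantile normalization, median scaling, normexp, the authors' deposited table, trends removed and the row covariate. The sign also varied between fits with an array left out.

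Of 15 names in the list of neural and glial development, 7 were measured, and Zfp191 and Zfp238 are not gene names in the annotation used. All 7 measured genes had a lower mean in MDD with 0 passing (median -0.30). Zfp365, a protein of neurons and oligodendrocytes that binds DISC1, had log2 levels of -0.23, -0.09 and 0.02 in MDD and 0.22, 0.25, 0.23 and 0.46 in CTRL. Groups were apart, with a log2 change of -0.39 (SE 0.12, limma adjusted p = 0.0568), and its dimmer probe fell by 0.74 on the log2 scale (adjusted p = 0.0284 among all probes). Zfp24, which mouse oligodendrocytes need to myelinate axons, was at 0.14, 0.27 and 0.20 in MDD and 0.45, 0.58, 0.49 and 0.44 in CTRL (log2 change -0.29, SE 0.11, adjusted p = 0.0897). Zfp292, mutated in a human neurodevelopmental disorder, had a log2 change of -0.42 (adjusted p = 0.0819), and its dimmer probe -1.21 (adjusted p = 0.0381 among all probes). Zfp703 was at -0.54, with dimmer probes at -0.29 and -0.56, and its close relative Zfp503, a factor of the developing striatum, at -0.30. Zfp521, a regulator of neural progenitors, had -0.06 (95% interval -0.40 to 0.28) and Zfp219, a partner of SOX9, -0.14.

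The imprinting and heterochromatin list had 4 measured members, all with a lower mean and 0 passing. Zfp445, which with ZFP57 keeps imprinted regions methylated in mouse, had log2 levels of -1.15, -0.18 and -0.59 in MDD, against 0.25, -0.05, 0.06 and -0.17 in CTRL. MDD replicate 2 lay just under CTRL replicate 4, and the log2 change was -0.66 (SE 0.22, limma adjusted p = 0.0665). Its dimmer probe had a log2 change of -0.21 (adjusted p = 0.551 among all probes). Zfp57 itself was at -1.43, -0.84 and -1.07 in MDD and -0.92, -0.82, -0.62 and -0.92 in CTRL. These groups overlapped (log2 change -0.29, SE 0.16, adjusted p = 0.216). Zfp410, which in mouse and human activates the remodeller gene Chd4, had a log2 change of -0.16, and Zfp644, a partner of the H3K9 methyltransferases G9a and GLP, of -0.07, with -0.56 on its dimmer probe (adjusted p = 0.0617 among all probes).

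Of 5 measured members that act on RNA, 3 had a lower and 2 a higher mean, and 0 passed (median log2 change -0.07). Zfp36l1 and Zfp36l2, which destabilise messenger RNAs with AU-rich elements, had log2 changes of -0.31 (adjusted p = 0.171) and -0.07 (adjusted p = 0.776). Zfp385a, which in mouse Purkinje cells binds the messenger RNA of the IP3 receptor, was at 2.25, 2.22 and 2.51 in MDD and 2.02, 2.12, 2.56 and 2.55 in CTRL, with overlapping groups. Its log2 change was 0.02 (95% interval -0.38 to 0.41) and turned negative with quantile normalization, normexp, the authors' deposited table, trends removed and the row covariate, and its dimmer probe had -0.33. Zfp598, the ubiquitin ligase of collided ribosomes, had a log2 change of -0.24 and Zfp622, which serves in maturation of the large ribosomal subunit, 0.26. Of the partners of the chromatin reader ZMYND8, Zfp592 gave a log2 difference of 0.48 with groups apart (SE 0.19, adjusted p = 0.0985) and Zfp532 of -0.19. Zfp394 was, with Zfp384 and Zfp385a, among the genes with the smallest size of change, at a log2 change of -0.03 (adjusted p = 0.926).

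Co-repressors that KRAB proteins recruit were split in direction. Of 31 listed, 19 were measured, 1 rose and 1 fell (5.26% each, against 12.7% and 7.72% of all features), with 8 lower means and a median log2 change of 0.05. Smarcad1, a remodeller that binds TRIM28, had log2 levels of -5.14, -4.05 and -4.16 in MDD, against -3.26, -3.58, -3.60 and -3.50 in CTRL (1.95-fold lower, SE of log2 0.25, limma adjusted p = 0.0340). Mbd3, a subunit of the NuRD complex, was at 0.93, 0.66 and 0.75 in MDD and 0.31, 0.43, 0.37 and 0.23 in CTRL (1.36-fold higher, adjusted p = 0.0369). Rbbp4 had a log2 change of 0.37, Gatad2b of 0.66, Cbx3 of -0.29 and the DNA methyltransferase gene Dnmt3a of -0.50, none of which passed. Trim28 itself, added after its values were seen, was higher by 0.20 in log2 mean, which did not pass (SE 0.16, adjusted p = 0.369).

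Genomic position and length were set beside the change. Zfp genes often lie in tandem arrays, and 71 of the 158 had a Zfp or Znf gene as an adjacent protein-coding gene in GRCr8. Their median log2 change was -0.27 (7 lower, 3 higher), equal to the -0.27 of the 87 without such a neighbour (12 lower, 2 higher). Lower calls were thus 9.86% and 13.8%, and higher calls 4.23% and 2.30%, beside 7.72% and 12.7% of all features. Across the array, short genes tended to be higher and long ones lower in MDD, with a Spearman's rho of -0.40 between log2 change and genomic length over 11966 named genes. Over the 158 Zfp genes it was -0.26, both given as descriptions. The median length of the Zfp genes was 18832 bases, near the 20850 of all named genes.

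**Figure D5:**
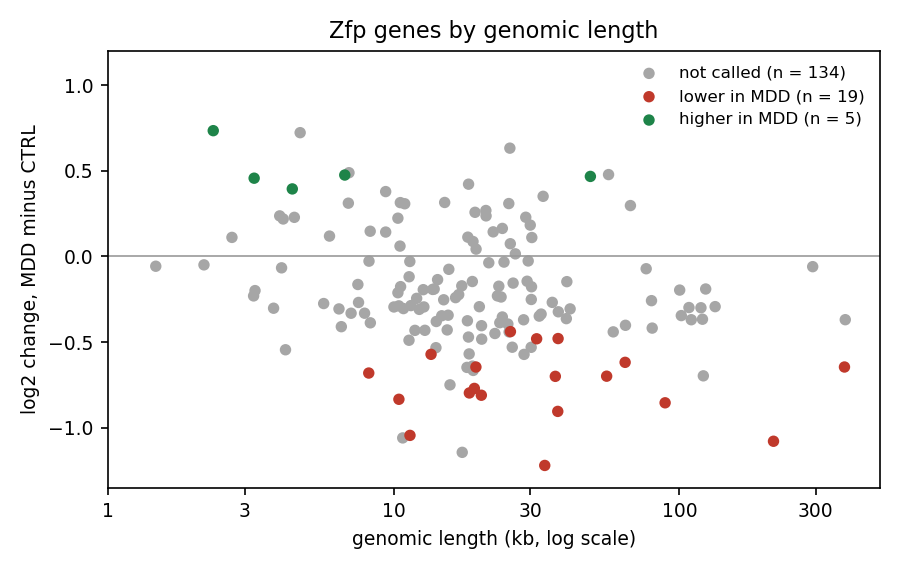
Log2 change, MDD minus CTRL (y axis), against genomic length in kb (x axis, log scale) for the 158 Zfp genes, with the 19 called lower in red, the 5 called higher in green and the rest in grey. Of the 5 that rose, 4 are short genes, and points below 0 occur at every length.

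The shortest 53 Zfp genes, of 1465 to 12732 bases, had a median log2 change of -0.18, with 3 lower and 4 higher. The middle 53 had -0.29 (5 lower, 0 higher) and the longest 52, of 25563 bases and more, -0.33 (11 lower, 1 higher). From shortest to longest, 5.66%, 9.43% and 21.2% were lower, beside 7.72% of all features. Those higher were 7.55%, 0% and 1.92%, beside 12.7%. Shares over all genes of the same lengths were not counted. By signal, the dimmest 53 had a median of -0.33, the middle 53 of -0.29 and the brightest 52 of -0.13, and rho with mean signal was 0.33. With both trends removed array by array, the Zfp median was -0.25 and that of all features -0.01.

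In other zinc finger families on the array the median log2 change was -0.23 over 33 Zbtb genes (1 lower, 2 higher), -0.22 over 14 Klf genes (2 lower, 0 higher), -0.30 over 7 Zscan and Zkscan genes (1 lower, 0 higher) and -0.43 over 2 Znf genes (0 lower, 0 higher). Over all features 7.72% were lower and 12.7% higher. No difference between families was tested. Of the cell type markers, 6 of 8 for microglia rose and 1 fell. Their summed linear level, relative to the 75th percentile, was 12.9 to 17.9 in MDD and 9.02 to 9.62 in CTRL. Of 10 granule neuron markers, 0 rose and 3 fell (summed level 85.2 to 95.7 in MDD, 98.4 to 104.0 in CTRL). Of 7 Purkinje cell markers, 1 rose and 2 fell (226 to 283 in MDD, 200.1 to 226 in CTRL). Of 5 choroid plexus markers, 0 passed and all 5 had a higher mean in MDD (113 to 272 in MDD, 96.7 to 132 in CTRL). Nearly all of that sum was Ttr (mean log2 level 7.51 in MDD, 6.79 in CTRL). Among markers of astrocytes and Bergmann glia 1 of 8 rose, of oligodendrocytes 1 of 10 fell, and of meninges and vessels 1 of 7 rose, beside the 12.7% and 7.72% of all features. No measured marker of these lists was below background, and the part of these cell types in the Zfp changes was not tested.

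Of the 31 Zfp genes with several kept probes, 6 had probes that differed in sign, and none of those probes was called. Zfp280d and Zfp867 were the genes whose probes were all called in one direction. One member, Zfp483, was well above background on 0 MDD arrays and 3 CTRL arrays, so it was kept through CTRL alone. Its log2 levels were -6.45, -6.54 and -6.35 in MDD, against -4.81, -3.52, -6.03 and -6.85 in CTRL, with CTRL replicate 4 below every MDD array, and it did not pass (limma adjusted p = 0.239). Zfp786, Zfp438 and Zfp831 were well above background on 1, 1 and 2 MDD arrays and on 4, 3 and 4 CTRL arrays. Each had a lower mean in MDD (log2 change -0.75, -0.70 and -0.37), and none passed. Zfp786, Zfp438 and Zfp831 thus also met the detection rule on CTRL arrays alone, and would not have met it on MDD arrays alone. Over the 154 Zfp genes detected on all 7 arrays the median log2 change was -0.26, and 74.0% had a lower mean. Over all features so detected these were -0.02 and 51.3%. The 134 Zfp genes that did not pass had log2 changes between -1.14 and 0.72, 99 of them with a lower mean, and a median of -0.23. The median SD of a Zfp gene between arrays was 0.22 in MDD and 0.15 in CTRL.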

How the data were processed

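RNA was Cy3-labelled and run on 1-colour Agilent arrays, per the labels. The deposited scanner tables hold linear spot intensities made with Feature Extraction 10.7.3.1 on a grid of rat assembly rn4, per the file headers. The processed signal had its background removed and was detrended by that software, and other deposited columns hold flags of 0 or 1. The authors also deposited a table of normalized intensities; the sources used here do not state how it was made.

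Control and outlier spots were left out of the probe values. The 75th percentile of an array was taken off on the log2 scale (1140 to 1669 units in MDD, 1305 to 2105 in CTRL). It was computed over all spots other than controls, outlier spots included. Values were averaged over the spots of a probe. Of 30367 probes, 22255 were kept, with at least 50% of their spots well above background on at least 3 arrays. Unversioned accessions matched to a RefSeq table of GRCr8 named 18355 probes. Groups came from the titles and were tested by limma 3.58.1 in R 4.3.3 (two-sided, adjusted p threshold 0.05, 8.39 degrees of freedom with the prior), tested on simulated data. Named genes are the 15 largest rises and falls that passed, members of the role lists, the 3 smallest changes, and 6 co-repressor genes by smallest p. Roles come from mouse or human unless stated. The members and lists were chosen with earlier results of these data known. A planned split by protein domain was not made, since protein sequences were not used here. For normexp the spot median took the place of the spot mean.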

Additional observations from a re-analysis of the deposited data

Results flagged for a closer look

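Of the 53 named genes, 5 had 1 CTRL array far from the other 3 by Dixon's test at 95% (chance gives about 1 in 20). Log2 levels of the array that stood apart were -3.48 for Zfp37 in CTRL replicate 1, 0.43 for Zfp36l2 in CTRL replicate 2, 1.84 for Zfp598 in CTRL replicate 4, 0.46 for Zfp365 in CTRL replicate 4 and -0.92 for Zfp410 in CTRL replicate 2. Without CTRL replicate 1, Zfp37 had a log2 change of -0.59 (limma adjusted p = 0.0904).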

How the results depend on the processing

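The sign of each of the 24 calls held under every alternative, but most alternatives could not turn it. The groups did not overlap for any called gene, so leaving out arrays, the replicate block and the row covariate had to keep the sign. The detection filters and testing each probe left the log2 changes as they were. The sign was free to turn with quantile normalization, median scaling, normexp, the authors' deposited table and trends removed. With quantile normalization, median scaling, normexp, the authors' deposited table, detection on all 7 arrays or each probe tested alone, 19 to 26 Zfp genes were called lower and 5 to 8 higher (8 with median scaling and 8 with detection on all 7 arrays). With trends removed 1 was higher, and with no filter 5 were lower and 0 higher (limma, 13 higher at an unadjusted p under 0.05). Over all features 1566 were higher with trends removed, and 388 were lower and 1205 higher with no filter. Leaving out 1 array gave 4 to 24 lower and 0 to 6 higher, beside 223 to 2329 lower and 799 to 2905 higher over all features. Slide row as a covariate gave 0 and 0. The median was -0.16 with normexp, -0.17 with the authors' deposited table and -0.17 with the row covariate. The -0.17 within row 2 (chosen after seeing the data) is that same contrast again, since row 1 held CTRL arrays alone.

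Replicate numbers did not pair the samples (correlations of same-numbered deviations 0.09, -0.18 and 0.22, with 1 of 3 numbers correlating best with itself). A fit with the replicate number as a block, on 6 arrays without CTRL replicate 4, called 0 lower and 0 higher Zfp genes, 0 role list members and 0 co-repressors (35 lower and 9 higher Zfp genes at an unadjusted p under 0.05).

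Role list members called lower were 6 with quantile normalization, 9 with normexp, 4 with the authors' deposited table, 2 with detection on all arrays, 6 with trends removed, 0 with no filter or the row covariate, and 0 to 4 with 1 array left out. Co-repressors called higher were 0 with quantile normalization, no filter, trends removed and the row covariate, and 0 to 1 with 1 array left out. Those called lower were 2, 3 and 2 with quantile normalization, normexp and the authors' deposited table, 0 with no filter and the row covariate, and 0 to 2 with 1 array left out.

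Uncalled log2 changes that turned sign were those of Zfp385a (-0.21 quantile, -0.21 normexp, -0.12 deposited table, -0.072 trends removed, -0.22 row covariate, -0.082 to 0.098 with 1 array left out), Zfp384 (0.11 quantile, 0.020 median scaling, 0.15 normexp, 0.14 deposited table, 0.088 trends removed, 0.033 row covariate, -0.25 to 0.086 with 1 array left out) and Zfp394 (0.080 quantile, 0.018 median scaling, 0.12 normexp, 0.091 deposited table, 0.014 replicate block, -0.23 to 0.14 with 1 array left out). With trends removed Zfp521 was 0.14, Zfp644 0.016 and the Zfp532 log2 change 0.0063, and with the row covariate Zfp644 was 0.092. With 1 array left out Zfp521 ranged from -0.15 to 0.11, Zfp644 from -0.20 to 0.045 and Zfp36l2 from -0.18 to 0.066. The cause was not tested. With 3 and 4 arrays a group, the number of arrays limits precision.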
